A study of Mus musculus with 14 samples.

Results

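The genes described here are those of the mitochondrial respiratory chain and the ATP synthase that nuclear DNA encodes, measured in mouse intestine and in a colon carcinoma line. They were chosen by gene name, as every name on the array that begins with Nduf and a letter a, b, c, s or v, with Uqcr, with Cox4 to Cox8 or with Atp5, together with Sdha to Sdhd. The rule found 90 genes among the 36161 gene names on the array, read by 126 of its 55681 probes. Of the 90, 75 are subunits of the complexes themselves: 36 of complex I, 4 of complex II, 8 of complex III, 12 of complex IV and 15 of complex V. Another 8 are isoforms restricted to some tissues, 4 are complex I assembly factors (Ndufaf1 to Ndufaf4), and 3 carry such a name without being subunits (Atp5s, Atp5sl and Cox4nb). Cox4nb is listed by RefSeq as Emc8, a gene of the endoplasmic reticulum membrane complex, and Atp5sl as Dmac2.

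Complexes I and II take electrons from NADH and succinate, complex III passes them to cytochrome c, and complex IV hands them to oxygen. Complexes I, III and IV pump protons across the inner mitochondrial membrane as they do so, and complex V, the ATP synthase, makes ATP as the protons flow back. In intestinal epithelium, mitochondria are abundant in the absorptive enterocytes, whereas dividing and tumor cells are known to draw more on glycolysis.

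Expression was measured on 14 one-color arrays, each hybridised with 1 sample. They covered small intestine (3 arrays) and colon (3) of healthy C57BL/6J mice, tissue adjacent to adenomas (2) and macroscopic adenomas (3) of APCmin/+ mice, and the CT26 line (3). APCmin/+ mice carry 1 truncated copy of the tumor suppressor Apc and grow adenomas mostly in the small intestine, and CT26 is a colon carcinoma line grown in culture, derived from BALB/c mice, so that it differs from the colon samples in strain as well. No treatment or age is given in the labels, and the animal tissues were taken whole, without sorting of cells. The study's sample list places all adenoma and adjacent pieces in 1 mouse, so that the spread within these 2 groups is between pieces, and it places 1 of the colon samples in an ApcMin/+ mouse although the label gives C57BL/6J. For CT26 nothing states that the replicates were separate cultures, so that every p-value here measures the spread between these samples, which may be technical. Values are log2 levels, the log2 of the scanner's processed signal minus the 75th percentile of that array, taken from the brightest probe of a gene. A level can be compared between samples but not between genes, and a difference of 1 is a 2-fold change. A gene was called at the study's thresholds when the log2 difference was at least 1.2 in size with an adjusted p of at most 0.01 (limma), and counts at an adjusted p of 0.05 without a fold limit are given beside it.

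Between 46.85% and 58.21% of probes were well above background on each array, the lowest share being on the library labelled colon replicate 3. By list medians, enterocyte and colonocyte markers on that library lay nearer to small intestine than to the other colon arrays. The enterocyte median was 5.801 on it, -2.66 and -2.257 on the other colon arrays and 5.907 to 8.814 in small intestine. The colonocyte median was -1.822 on it and -2.398 to -1.397 in small intestine, below both other colon arrays. The summed level of 10 enterocyte markers was 10.8 on that library. It was 6.82 and 7.56 on the other colon arrays and 10.73 to 12.22 in small intestine. The colon gene Hoxb13 stood at -5.79 on that library, against 7.22 and 5.61 on the other colon arrays. The summed level of 9 colonocyte markers was 9.45 on it, against 9.28 and 9.21 on the other colon arrays and 3.4 to 3.45 in small intestine, with Saa1 at 9.38 and the other 8 below both other colon arrays. Its signals correlated at 0.951 to 0.969 with the small intestine arrays and at 0.934 to 0.938 with the other colon arrays, over 20832 probes. The counts of comparisons with colon are therefore given with and without it, and values of single genes with it unless said otherwise. Epithelial RNA was low in CT26. All 9 epithelial markers were called lower than in colon, 5 of the 9 were not well above background on any CT26 array, and the summed level of the 9 was 4.94 to 5.78 against 10.39 to 11.25 in colon. Of the 90 genes, 85 were well above background on all 14 arrays, among them 74 of the 75 subunits. Cox7b2 and Cox8c, isoforms of testis, were above background on none. The only probe of Ndufa12, a complex I subunit, was marked as an outlier on CT26 replicate 2, and the gene was not tested there.

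Promoters of nuclear respiratory genes are known for sites of the transcription factors NRF1, GABP (also called NRF2) and YY1, and a few are shown because these sites are the best known sequence feature of such promoters, although most of the promoters read here held none of them. RefSeq promoters of GRCm38.p6, 300 bases each from 250 before to 50 after the start, were found for 74 of the genes, with 80 promoters in all. The letters CGCATGCG (NRF1, a palindrome) were found in 12.5% of them against 1.87% of all 32851 mouse promoters. The letters CCGGAAG (GABP) were in 21.2% against 8.86%, and AAGATGGC (YY1) in 15% against 2.75%, on either strand. A promoter may hold more than 1 of the 3 motifs, and 41.2% held at least 1, against 12.6% of all promoters. None of the 4 promoters of the restricted isoforms held any of the 3. Each line gives 30 bases of the gene's own strand, 5′ to 3′, with the motif in capitals.
Sdhb (GABP, chr4:140961266-140961295, plus strand): gctcggagaaaCCGGAAGcggccttccact
Uqcrh (GABP, opposite strand, chr4:116075062-116075091, minus strand): agtatgccgcaCTTCCGGccaggtcgccgg
Atp5e (GABP, opposite strand, chr2:174464185-174464214, minus strand): tacggccacagCTTCCGGtagccgctcggc
Uqcr11 (NRF1, chr10:80406808-80406837, minus strand): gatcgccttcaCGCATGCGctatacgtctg
Atp5k (NRF1, chr5:108434430-108434459, minus strand): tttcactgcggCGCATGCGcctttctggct
Atp5j (NRF1, chr16:84835105-84835134, minus strand): aggccagaataCGCATGCGtacagtgcagt
Ndufs7 (YY1, chr10:80249462-80249491, plus strand): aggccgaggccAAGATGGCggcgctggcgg
Atp5f1 (YY1, opposite strand, chr3:105959248-105959277, minus strand): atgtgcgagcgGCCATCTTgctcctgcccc
These are matches of letters, and binding was not measured.

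Across the 5 groups, the subunits were highest in small intestine. The median log2 level of the 75 subunits was 6.58, 7.08 and 7.13 on the small intestine arrays, 6.38 and 6.31 in adjacent tissue, 6.08, 6.31 and 5.94 in adenomas, 6.59, 6.19 and 6.84 in colon and 6.04, 6.07 and 5.83 in CT26. Every small intestine array lay above every adjacent, adenoma and CT26 array, while colon overlapped with small intestine, adjacent tissue and adenomas, and adenomas overlapped with CT26. The highest adenoma array was level with the lower adjacent array. Counted gene by gene, 69 of the 75 subunits had their highest group mean in small intestine, 5 in CT26 and 1 in colon. The lowest mean was in CT26 for 34, in adenomas for 31, in adjacent tissue for 9 and in colon for 1.

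Replicates differed in the same direction for most subunits. Small intestine replicate 1 was the lowest of its group for 67 of the 75 subunits and replicate 3 the highest for 64, with a median SD over the subunits of 0.294. In colon the median SD was 0.313 and the library labelled colon replicate 3 was highest for 61. In adenomas it was 0.155, in CT26 0.150 and between the 2 adjacent pieces 0.0921. Subunits of 1 sample share that sample's RNA and scaling, so that a shift of all of them is 1 observation and not 75.

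**Figure D1:**
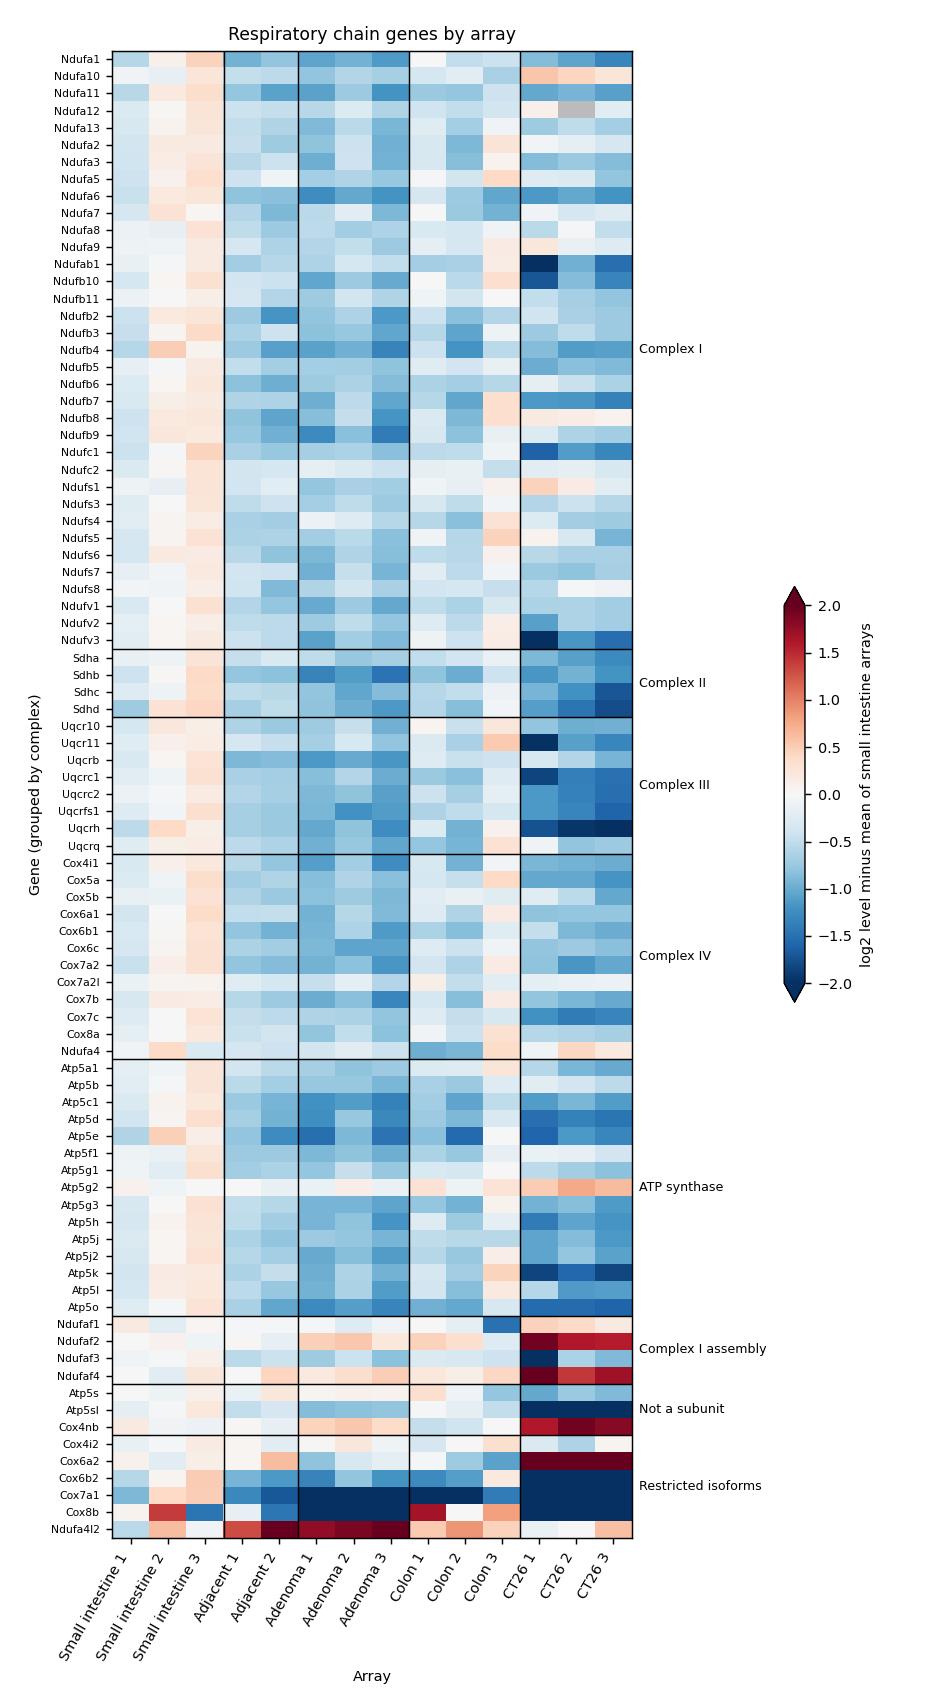
Log2 level of 87 of the 90 genes (rows, by complex or role) on the 14 arrays (columns, by group), as the difference from the mean of the 3 small intestine arrays, with colors limited to -2 and 2 and the missing value of Ndufa12 in grey. Cox7b2 and Cox8c, not above background anywhere, and 1 gene not reported here were left out. Adenomas and CT26 are below small intestine for most subunits, and small intestine replicate 1 is the lowest array of its group for 67 of the 75 subunits.

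The first comparison asked whether the chain genes of adenomas stand at another level than in healthy small intestine. All 75 subunits had a lower mean in adenomas, by a median of 0.81 on the log2 scale, that is 1.75-fold. Their differences lay between -1.31 and -0.04 with an SD over subunits of 0.239, whereas the median over all 29533 probes tested was -0.15. At an adjusted p of 0.05, 68 subunits fell and none rose, and 7 did not pass. In 69 of the 75, all 3 adenoma arrays lay below all 3 small intestine arrays, which held for 37.1% of all probes. Of all 88 tested genes of the set, 73 fell and 1 rose at that threshold, where 29.9% of all probes were called lower and 22.2% higher. At the study's thresholds only 4 fell and 1 rose, with 10.9% of all probes called in each direction, since few subunits reached a difference of 1.2.

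Complex II and III were called in full in the fit described above. All 4 subunits of complex II fell, with a median of -0.94, and all 8 of complex III, with a median of -0.92. Over the alternative settings that kept all arrays the adjusted p reached 0.248 for Sdha and 0.156 for Uqcr11, and at most 0.0136 for Sdhb. Complex V had 14 of 15 called and a median of -0.90, complex IV 10 of 12 and -0.80, and complex I 32 of 36 and -0.74. The order of these medians was not tested.

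Sdhb, the iron-sulfur subunit of succinate dehydrogenase and the subunit with the largest difference, stood at 7.29, 7.73 and 8.08 in small intestine. It was at 6.36, 6.58 and 6.23 in adenomas, with the adjacent pieces at 6.93 and 6.88. No adenoma array reached the lowest small intestine array, and the fall was 1.31 on the log2 scale, or 2.48-fold (SE 0.235, adjusted p = 0.00397). Its brightest probe lies at chr4:140535052-140535108 of mm9, plus strand. A second probe of the gene fell as well, by 1.60. Sdha, the flavoprotein subunit that oxidises succinate, was at 5.61, 5.65 and 6.02 against a range of 5 to 5.25 and fell by 0.64 (adjusted p = 0.022).

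Among ATP synthase subunits, Atp5o, the OSCP subunit that links the catalytic head to the stalk, was at 6.38, 6.60 and 6.90 in small intestine and at 5.35, 5.53 and 5.30 in adenomas. These arrays did not overlap, and Atp5o fell 2.35-fold (log2 difference -1.23, SE 0.189, adjusted p = 0.00216). Atp5c1, the gamma subunit of the rotor, was at 7.61, 7.98 and 8.12 against 6.69, 6.78 and 6.56. It fell by the same amount (-1.23, adjusted p = 0.00218), and its second probe fell by 1.21. Atp5e, the epsilon subunit of the rotor, fell by 1.29 (adjusted p = 0.013). The catalytic pair fell by 0.73 and 0.82: Atp5a1, the alpha subunit, was at 7.58, 7.68 and 8.02 against 7.09, 6.96 and 7.04 (-0.73, adjusted p = 0.0124), and Atp5b, the beta subunit, at 8.63, 8.82 and 9.11 against 8.09, 8.09 and 7.94 (-0.82, adjusted p = 0.00913). In each of these genes, all adenoma arrays were below all small intestine arrays.

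The 3 genes for subunit c of the proton-driven ring encode the same mature protein, and they differed. Atp5g1 and Atp5g3 fell, by 0.67 and 0.97. Atp5g2 was at 7.64, 7.46 and 7.56 in small intestine and at 7.42, 7.69 and 7.42 in adenomas. The groups overlapped, with a difference of -0.04 (adjusted p = 0.849). It was also 1 of the few subunits whose highest values were in CT26, at 8.05, 8.31 and 8.19, against 7.84, 7.45 and 7.82 in colon (adjusted p = 0.182).

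In complex I, core subunits fell. Ndufv1, which binds NADH, fell by 0.92 from levels of 6.81, 7.11 and 7.41 to 6.10, 6.38 and 6.09 (adjusted p = 0.00942). The core subunits Ndufs1, Ndufs3, Ndufs7, Ndufs8 and Ndufv2 fell by 0.71, 0.64, 0.79, 0.54 and 0.67. Over the alternative settings that kept all arrays, their highest adjusted p lay between 0.0536 (Ndufs7) and 0.258 (Ndufs8). The largest differences were in accessory subunits, with Ndufb9 at -1.17 (adjusted p = 0.00724), Ndufa6 at -1.15 (adjusted p = 0.00526) and Ndufb4 at -1.12 (adjusted p = 0.0149). Ndufb9 was at 7.04, 7.66 and 7.63 in small intestine and at 6.16, 6.60 and 6.04 in adenomas, without overlap. The complex I subunits that did not pass were Ndufa7, Ndufa12, Ndufc2 and Ndufs4, with differences of -0.55, -0.47, -0.29 and -0.32.

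In complex III, Uqcrfs1, the Rieske iron-sulfur protein, was at 6.03, 6.24 and 6.62 in small intestine and at 5.38, 5.08 and 5.18 in adenomas, and fell by 1.08 (adjusted p = 0.00483). Uqcrb fell by 1.10 (adjusted p = 0.00374) and the core protein Uqcrc1 by 0.81 (adjusted p = 0.015). In complex IV, Cox4i1, the common form of subunit 4, was at 8.08, 8.49 and 8.60 against 7.29, 7.70 and 7.15 and fell by 1.01 (adjusted p = 0.00905). Cox5a and Cox5b, other nuclear subunits of that enzyme, fell by 0.76 and 0.81. Those that did not pass were Cox7a2l, a factor that joins complexes III and IV, at -0.41, and Ndufa4, which bears a complex I name and is now placed in complex IV, at -0.34.

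**Figure D2:**
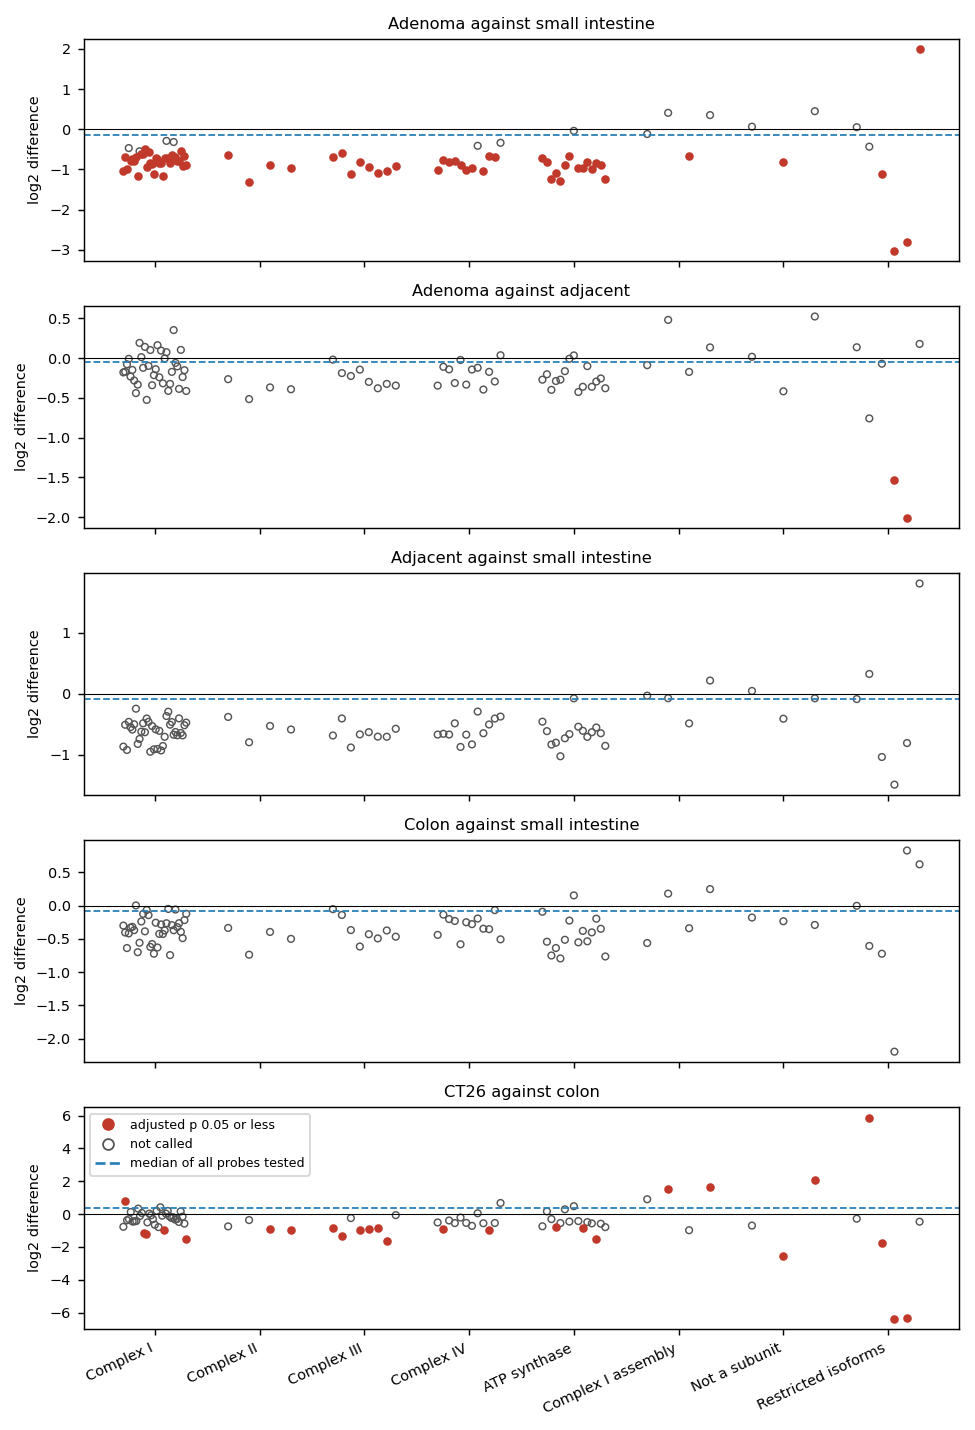
Log2 difference (vertical axis) of each tested gene, by complex or role (horizontal axis), in the 5 comparisons (panels), with red points for an adjusted p of at most 0.05, open points for the others and a dashed line at the median of all probes tested. In adenomas against small intestine all 75 subunits lie below 0 and 68 are red, in adjacent tissue and colon against small intestine none is red, and in CT26 against colon 17 are red below 0 and 1 above.

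The markers of cell types moved between the same samples. Their counts at an adjusted p of 0.05 stand beside 29.9% of all probes called lower and 22.2% called higher. Of 10 enterocyte markers 6 fell in adenomas, with summed levels of 10.73 to 12.22 in small intestine, 10.96 to 11.05 in adjacent tissue and 9.05 to 9.8 in adenomas, and none of the 10 was at background. Of 10 genes of cell division all 10 rose, from 5.61 to 6.51 in small intestine through 6.55 to 6.73 in adjacent tissue to 7.35 to 7.49 in adenomas. Of 8 smooth muscle markers 6 fell, with sums of 7.18 to 9.05, 7.23 to 9.24 and 6.62 to 6.9. Among 9 epithelial markers 1 rose and 5 fell, with sums of 10.93 to 11.2 in small intestine and 10.55 to 10.8 in adenomas. Of 8 leukocyte markers 2 rose and 4 fell, with sums of 7.54 to 7.66 and 3.96 to 4.6. Differences of single leukocyte markers ran from -3.82 to 5.26, with a median of -1.25. The median level of the list was -0.07 to 0.23 in small intestine and -0.68 to -0.21 in adenomas. The part of these shifts in the fall of the chain genes was not tested, and in whole tissue fewer cells of a type and less RNA per cell cannot be told apart.

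Small lists were also read, beside the same 29.9% of all probes called lower and 22.2% called higher. Of 8 tested colonocyte markers 3 rose and 2 fell in adenomas, with sums of 3.4 to 3.45 in small intestine, 2.47 to 2.82 in adenomas and 9.21 to 9.45 in colon. Of 4 tested striated muscle markers 1 rose and 3 fell, with sums of 1.7 to 2.21 and 0.68 to 1.31. Of 4 tested brown adipocyte markers 2 rose, with sums of 2.52 to 5.54 and 4.21 to 4.39. Among 3 tested genes of male germ cells and epididymis 1 rose and 1 fell. The gene that rose, Gpx5, stood at 3.62 and 4.29 in adjacent tissue and at 1.35 to 2.13 in adenomas, and was at background in small intestine.

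The fall depended on scaling in size but not in direction. The median of the subunits relative to all probes was -0.66 as computed above, -0.58 after another background correction (normexp), -0.48 after quantile normalization and -0.42 in the authors' normalized table. The number of subunits called lower was 68, 67, 36 and 38 in the same order, with 72 of 75 negative in the last 2 of these. Without the filter on dim probes it was 34, with a relative median of -0.38. Leaving out 1 array changed that number to between 26 (without adenoma replicate 3) and 70 (without small intestine replicate 1), and it was 34 without adenoma replicate 1.

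The restricted isoforms, which replace a common subunit in muscle, brown fat, lung or testis, had differences from -3.02 to 1.99 in adenomas against small intestine. Cox7a1, the heart and skeletal muscle form of subunit 7a, was at 6.54, 7.83 and 7.93 in small intestine, at 6.15 and 5.74 in adjacent tissue and at 3.97, 4.80 and 4.46 in adenomas. In colon it was at 5.07, 4.61 and 6.04 and in CT26 at -1.26, -0.53 and -1.61. CT26 lay far below all tissues, and no adenoma array reached an adjacent or small intestine array. Cox7a1 fell 8.12-fold in adenomas against small intestine (log2 difference -3.02, SE 0.408, adjusted p = 0.00128), whereas its common partner Cox7a2 fell by 0.97 (adjusted p = 0.0126). The probe spans chr7:30970337-30970948 of mm9, plus strand.

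Cox8b, the muscle form of subunit 8, was lower and varied more. It was at -1.54, -0.20 and -3.07 in small intestine, at -4.98, -4.22 and -4.06 in adenomas and at -1.77 and -3.05 in adjacent tissue, with 2 of 3 adenoma arrays well above background. It fell in adenomas by 2.81 (SE 0.675, adjusted p = 0.0124), and its partner Cox8a by 0.70 (adjusted p = 0.0181). Cox6b2, the testis form of subunit 6b, fell by 1.11 (adjusted p = 0.0196), from -0.26, 0.37 and 0.81 to -1.03, -0.48 and -0.88, and its partner Cox6b1 by 0.89 (adjusted p = 0.0139). Cox4i2, the lung form of subunit 4, lay between -1.76 and -0.82 on all 14 arrays and was called in no comparison. In adenomas against small intestine most smooth and striated muscle markers fell too, as given above, with 1 striated marker higher. In adjacent tissue against small intestine Cox7a1 and Cox8b differed by -1.49 and -0.81, neither called. There 7 of 8 smooth muscle markers were higher, with a median of 0.16 and none called. In colon, where Cox7a1 differed by -2.20, smooth muscle sums were 9.07 to 9.53 against 7.18 to 9.05 in small intestine. The part of these markers was not tested.

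Ndufa4l2, a gene related to Ndufa4 and known to be induced by hypoxia, was the 1 member called higher in adenomas at an adjusted p of 0.05, where 4 members were called higher after quantile normalization and 4 in the authors' table. It was at -3.93, -2.78 and -3.46 in small intestine, at -2.08 and -1.09 in adjacent tissue, at -1.61, -1.51 and -1.09 in adenomas, at -2.87, -2.51 and -2.93 in colon and at -3.52, -3.39 and -2.79 in CT26. Adjacent tissue and adenomas overlapped and lay above all other arrays. The rise in adenomas was 3.96-fold (log2 difference 1.99, SE 0.314, adjusted p = 0.00244), while Ndufa4 differed by -0.34 (adjusted p = 0.219). For adjacent tissue against small intestine the difference was 1.81 (adjusted p = 0.0758). The probe lies at chr10:126954149-126954208 of mm9, plus strand.

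**Figure D3:**
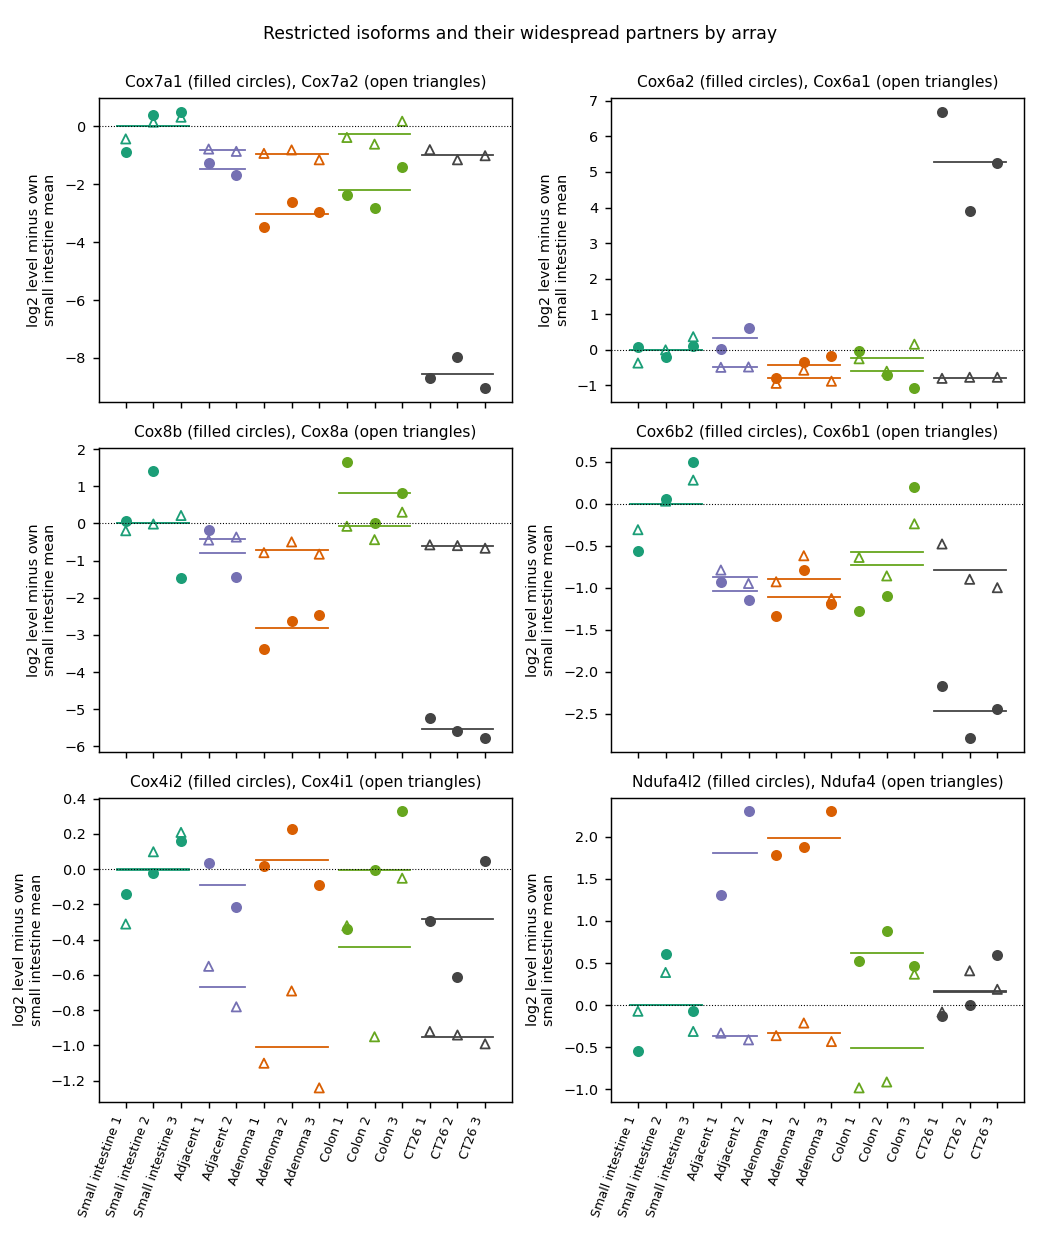
Log2 level of 6 restricted isoforms (filled circles) and of their common partners (open triangles) on each of the 14 arrays, each gene relative to its own mean in small intestine, with short lines at the group means. Cox7a1 drops by 3.02 in adenomas and further in CT26, Ndufa4l2 is raised in adenomas and adjacent tissue, and Cox6a2 is high in CT26 alone.

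Of the assembly factors, which help build complex I and are not part of it, Ndufaf3 fell in adenomas by 0.66 (adjusted p = 0.0166), and Ndufaf1, Ndufaf2 and Ndufaf4 did not pass, with differences of -0.12, 0.41 and 0.35. Over the alternative settings that kept all arrays the adjusted p ran from 0.0148 to 0.212 for Ndufaf2 and from 0.0122 to 0.3255 for Ndufaf4. A second probe of Ndufaf4 differed by -0.07 (adjusted p = 0.727). Atp5sl fell by 0.83 (adjusted p = 0.00625). Cox4nb was at 1.67, 1.42 and 1.37 against 1.94, 2.03 and 1.85, without overlap, and missed the threshold (0.45, adjusted p = 0.0515). Its adjusted p ran from 0.00901 to 0.166 over the alternative settings that kept all arrays.

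The second comparison set adenomas against the tissue beside them. Of 88 genes tested none was called at the study's thresholds, where 2.27% of all 29729 probes were called higher and 1.71% lower. At an adjusted p of 0.05 none rose and 2 fell, Cox7a1 and Cox8b, against 9.65% of all probes called higher and 10.3% lower. Cox7a1 fell by 1.53 (SE 0.286, adjusted p = 0.021) and Cox8b by 2.01 (SE 0.454, adjusted p = 0.0337). Their adjusted p ranged from 0.00762 to 0.128 and from 0.0172 to 0.152 over the alternative settings that kept all arrays. No subunit was called, although 64 of 75 were lower in adenomas, by a median of 0.21, and in 34 all adenoma arrays were below both adjacent arrays, as for 29.1% of all probes. The median over all probes was -0.05, and without the filter on dim probes it was -0.31, so that the subunit median then lay 0.094 above it with 24 of 75 subunits below. By unadjusted p, 12 of the 88 genes were under 0.05. The subunits that came closest were Ndufb10, an accessory subunit of complex I (-0.53, adjusted p = 0.0764), and Sdhb, at 6.36, 6.58 and 6.23 against 6.93 and 6.88 (-0.52, adjusted p = 0.0821). Between the same samples, 6 of 10 enterocyte markers fell and 9 of 10 genes of cell division rose. All 8 smooth muscle markers lay fully below adjacent tissue, with a median of -1.47 and 1 called, beside the 2 muscle isoforms that fell. The part of these markers was not tested.

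The third comparison set that adjacent tissue against healthy small intestine. All 75 subunits were lower in adjacent tissue, by a median of 0.63 against 0.09 for all 28826 probes, and in 71 both adjacent arrays lay below all 3 small intestine arrays, against 30.9% of all probes. None of the 88 genes was called at either threshold, and 44 had an unadjusted p under 0.05. All 9 epithelial markers were lower in adjacent tissue too, 7 of them without overlap, with a median of -0.50, none called, and summed levels of 10.19 to 10.59 against 10.93 to 11.2. Of 10 genes of cell division 9 were higher, with none called. The part of these markers was not tested. Few probes of any kind were called here, namely 0.00694% higher and 0% lower at the study's thresholds and 0.982% higher and 0.607% lower at an adjusted p of 0.05. For 64 subunits the adjacent mean lay between that of small intestine and that of adenomas, for 11 it was below adenomas and for none above small intestine. With small intestine set to 0 and adenoma to 1 for each subunit, adjacent tissue lay at 0.735 in the median, with the middle of the distribution between 0.635 and 0.856, over the 73 subunits for which adenoma and small intestine were at least 0.3 apart. Ndufb8, an accessory subunit of complex I, was 1 of the 11 whose adjacent mean lay below that of adenomas, at 6.64, 7.24 and 7.27 in small intestine, 6.24 and 6.00 in adjacent tissue and 6.20, 6.57 and 5.87 in adenomas. Adenomas and adjacent tissue overlapped in this gene and both lay below small intestine. These 2 comparisons and that of adenomas with small intestine share samples and are not independent of each other, and genotype and mouse cannot be told apart in them.

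The fourth comparison, colon against small intestine, asked how the healthy segments differ. None of 88 genes was called at either threshold, and 6 had an unadjusted p under 0.05. The median of the 75 subunits was -0.37, with 73 negative and 16 without overlap (17.4% of all probes lay fully below), beside a median of -0.08 over all 27299 probes. Calls were rare among all probes too, with 0.00366% higher and 0.00366% lower at the study's thresholds and 0.194% and 0.322% at an adjusted p of 0.05. Without the library labelled colon replicate 3, 11.4% of 30537 probes were higher and 12.4% lower at an adjusted p of 0.05, and 2 members were called lower. These were Cox7a1 (-2.60, adjusted p = 0.0144) and Atp5o (-0.99, adjusted p = 0.0364), and the subunit median was -0.53. The library labelled colon replicate 3 carried the highest value of its group for most subunits, as it did for enterocyte markers, whose part was not tested.

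The fifth comparison set CT26 against healthy colon, a carcinoma line against whole tissue. The subunits were lower by a median of 0.46, while the median over all 29378 probes was higher by 0.37. At an adjusted p of 0.05, 17 of 74 tested subunits fell and 1 rose, and of all 87 genes 21 fell and 5 rose, where 19.1% of all probes were called lower and 33.3% higher. At the study's thresholds 6 fell and 4 rose, against 14.9% and 21.5% of all probes. In 35 subunits all CT26 arrays lay below all colon arrays and in 2 above, beside 22.7% and 40.2% of all probes. Complex III had 6 of 8 subunits called lower, complex II 2 of 4, complex V 3 of 15, complex IV 2 of 12 and complex I 4 of 35, with 1 higher. Without the library labelled colon replicate 3, these counts were 2 of 8, 0 of 4, 1 of 15, 1 of 12 and 3 of 35, with 1 higher in complex IV.

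Uqcrh, the hinge protein of complex III, was at 8.21, 7.54 and 8.56 in colon and at 6.74, 6.54 and 6.06 in CT26. It fell 3.15-fold (log2 difference -1.66, SE 0.366, adjusted p = 0.00678), without overlap. Other members of complex III that fell were Uqcr11 (-1.31, adjusted p = 0.0286), Uqcrc1 (-0.95), Uqcrc2 (-0.91), Uqcrfs1 (-0.86) and Uqcr10 (-0.86). Atp5k, the e subunit of the ATP synthase, was at 7.07, 6.71 and 7.85 against 5.58, 5.84 and 5.59 and fell by 1.54 (adjusted p = 0.00836). Ndufv3, an accessory subunit of the NADH-binding module, was at 7.11, 6.80 and 7.36 against 4.95, 6.05 and 5.69 and fell by 1.53 (adjusted p = 0.00978). A second, dimmer probe of Ndufv3 did not fall, with a difference of 0.20 (adjusted p = 0.581). Ndufb10 fell by 1.23 (adjusted p = 0.0221).

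Most core subunits did not pass here. Ndufs1 differed by 0.19, Ndufv1 by -0.16, Cox4i1 by -0.51, Atp5a1 by -0.74 and Atp5b by 0.17, with adjusted p from 0.0704 to 0.656. The subunit that rose was Ndufa10, an accessory subunit of complex I, at 4.69, 4.56 and 4.37 against 3.78, 3.91 and 3.48 (0.82, adjusted p = 0.0406). Its adjusted p ran from 0.00298 to 0.397 over the alternative settings that kept all arrays.

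Cox6a2, the muscle form of subunit 6a, stood apart in CT26. It was at 3.97, 1.18 and 2.52 there and between -3.80 and -2.11 on the arrays of every tissue, with colon at -2.75, -3.44 and -3.80. The difference from colon was 5.88 (SE 0.676, adjusted p = 0.000299), and its partner Cox6a1 differed by -0.55 (adjusted p = 0.163). Cox6a2 was not well above background on every colon array and entered the test through CT26, so that the size of its difference is uncertain. Its adjusted p is not independent of that filter. The other muscle isoforms, Cox7a1 and Cox8b, and the testis form Cox6b2 were lower in CT26 than in colon. Cox7a1 fell by 6.37 (SE 0.46, adjusted p = 2.91e-05). Cox8b was not well above background on any CT26 array, which bounds its fall at 22.6-fold or more (adjusted p = 2.59e-05), and Cox6b2 fell by 1.75 (adjusted p = 0.0126). The Cox6a2 probe lies at chr7:135349160-135349219 of mm9, minus strand, and the Cox8b probe at chr7:148084852-148084911, minus strand. Of 8 smooth muscle and 4 striated muscle markers tested, 7 and 4 fell in CT26, beside 19.1% of all probes called lower. The sums were 3.45 to 5.01 against 9.07 to 9.53 and -2.48 to -2.28 against 2.2 to 2.57. Their part was not tested.

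The members that are not subunits moved both ways in CT26. Cox4nb was at 3.09, 3.41 and 3.31 against 1.01, 1.09 and 1.49 in colon and rose by 2.07 (SE 0.284, adjusted p = 0.000707). Atp5sl was at 1.11, 1.31 and 0.91 against 3.83, 3.70 and 3.39 and fell by 2.53 (SE 0.284, adjusted p = 0.000266). The assembly factors Ndufaf4 and Ndufaf2 rose by 1.63 (adjusted p = 0.0064) and 1.52 (adjusted p = 0.00488). None of these 4 overlapped between CT26 and colon.

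Without the library labelled colon replicate 3, 7 subunits fell and 1 rose, and of the 87 genes 12 fell and 5 rose, with 22.9% of 31796 probes called lower and 32.3% higher. The subunit that rose was then Ndufa4 (1.11, adjusted p = 0.0147) and no longer Ndufa10 (adjusted p = 0.0694). At the study's thresholds 4 fell and 4 rose, against 18.5% and 20.5% of all probes. The median over the 87 genes moved from -0.46 to -0.30. No array could be left out without lowering the count of 17, which lay between 3 (without colon replicate 1 or without CT26 replicate 3) and 11 (without colon replicate 2). Relative to all probes the subunit median was -0.83, and it was -0.50 with normexp, -1.31 after quantile normalization and -1.14 in the authors' table. The subunits called lower numbered 17, 16, 50 and 53 in that order, with 1, 1, 0 and 0 called higher. Without the filter on dim probes 3 were called lower, and with the slide as a block 5.

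A direct test of the difference between the CT26 and adenoma changes, each against its healthy segment, called 3 of 87 genes higher and 4 lower at the study's thresholds, with 16% and 14.2% of 31893 probes. Cox6a2 (6.32), Cox4nb (1.62) and Ndufa10 (1.5) were more positive in CT26 against colon than in adenomas against small intestine. Cox8b (-3.54), Cox7a1 (-3.35), Ndufa4l2 (-2.45) and Atp5sl (-1.70) were more negative. Ndufa10 was the 1 subunit among them. Without the library labelled colon replicate 3, 6 genes were called higher, 4 of them subunits, and 3 lower, with 19.8% and 15.7% of 31894 probes. The median difference over 74 subunits was 0.41 and that over all probes 0.45.

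The genes that mitochondrial DNA encodes, which form the rest of the chain, were read with 12 probes. Of these, 7 are placed on the mitochondrial genome by the array's annotation and 5 on a nuclear copy on chromosome 1, so that the source of their signal is uncertain. In adenomas against small intestine 9 of 12 fell, beside 29.9% of all probes called lower, with a median of -1.04. They also fell against adjacent tissue, where no nuclear subunit was called: 8 of 12 fell, all 12 lay fully below, and the median was -0.89. Of all probes 10.3% were called lower there and 29.1% lay fully below. ND5, a proton-pumping subunit of complex I, was at 5.20, 6.39 and 6.14 in small intestine, at 5.20 and 5.77 in adjacent tissue and at 4.22, 4.31 and 4.70 in adenomas. Its adenoma arrays were below those of both other groups, and it fell by 1.5 (adjusted p = 0.00852) and, against adjacent tissue, by 1.07 (adjusted p = 0.0356). ND1, ND2, ND4 and ATP8 fell in both comparisons as well. Adjacent tissue had a median of -0.10 against small intestine with none called. The genes of mitochondrial DNA and the nuclear subunits were not tested against each other. In CT26 against colon, where 19.1% of all probes were called lower, 2 of 12 fell, ND4L (-0.98) and ND5 (-0.75), with a median of -0.51, and without the library labelled colon replicate 3 1 of 12 fell.

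Enzymes that feed the chain fell in adenomas too. Of 18 genes of the citrate cycle and pyruvate dehydrogenase 11 fell and none rose, beside 29.9% and 22.2% of all probes, with a median of -0.70. Cs, citrate synthase, which opens the cycle, was at 7.99, 8.44 and 8.89 in small intestine, at 7.46 and 7.42 in adjacent tissue and at 6.70, 6.63 and 6.74 in adenomas. The 3 groups did not overlap, and Cs fell by 1.75 against small intestine (adjusted p = 0.00143) and by 0.75 against adjacent tissue (adjusted p = 0.0225). Ogdh, the first enzyme of the 2-oxoglutarate dehydrogenase complex, fell by 1.73 (adjusted p = 0.00142), by 0.85 against adjacent tissue, and by 2.45 in CT26 against colon. Dlst, Sucla2 and Suclg1 fell in adenomas by 1.47, 1.38 and 1.28. In CT26, beside 19.1% of all probes lower and 33.3% higher, 1 of 18 fell and 3 rose, Dld, Pdhb and Pdhx, which are parts of the pyruvate dehydrogenase complex. The counts were 4 and 3 without the library labelled colon replicate 3.

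Of 16 carriers and exchangers 11 fell in adenomas and none rose, beside 29.9% and 22.2% of all probes, with a median of -0.98. Slc25a5, an ADP/ATP carrier of dividing tissues, fell by 1.68 (adjusted p = 0.000753), the mitochondrial creatine kinase Ckmt1 by 1.57, Etfdh by 1.29, the porin Vdac2 by 1.21 and cytochrome c (Cycs) by 1.15. In CT26 2 rose and 4 fell, beside 33.3% and 19.1% of all probes, and these counts were the same without the library labelled colon replicate 3. Slc25a4, the ADP/ATP carrier of muscle, was at 4.85, 5.25 and 5.07 in colon and at 7.24, 8.06 and 7.69 in CT26, and rose by 2.61 (adjusted p = 0.000403). Ckmt1, Ucp3, Ucp2 and Atpif1 fell there by 5.49, 4.18, 3.91 and 1.22.

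Assembly factors moved in both directions. In adenomas 3 of 22 rose and 11 fell, beside 22.2% and 29.9% of all probes, among them the copper chaperones of complex IV Sco2 (-1.55), Cox19 (-1.23), Sco1 (-1.23) and Cox11 (-0.88), and Tmem126b (-1.49), a complex I factor. In CT26 6 of 23 rose and none fell, with or without the library labelled colon replicate 3, where 33.3% of all probes were called higher. The largest difference was that of Cox18, which was at 0.24, 1.01 and 1.30 in colon and at 3.95, 3.73 and 3.67 in CT26 (2.93, adjusted p = 0.000354). Sco2, lower in adenomas, rose by 1.76 there.

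Of 17 regulators of mitochondrial biogenesis 5 fell and 3 rose in adenomas, shares close to the 29.9% and 22.2% of all probes. Esrra, a nuclear receptor that drives chain genes, was at 6.65, 6.92 and 7.08 in small intestine, at 6.04 and 5.71 in adjacent tissue and at 4.96 to 5.11 in adenomas, and fell by 1.86 (adjusted p = 0.000313). Its coactivator Ppargc1a fell by 1.91 (adjusted p = 0.01), the polymerase subunit Polg2 by 1.34 and Ppara by 1.12, and all 4 fell against adjacent tissue too, by 0.85, 1.16, 0.92 and 1.19. Pprc1, a coactivator related to Ppargc1a, rose by 1.47 (adjusted p = 0.00352). In CT26, beside 19.1% of all probes lower and 33.3% higher, 5 of 16 fell, among them Ppargc1b (-3.60), Ppara (-2.12), Ppargc1a (-2.01) and Esrra (-1.73), and 9 rose, among them Ssbp1 (2), which binds single-stranded mitochondrial DNA. There were 6 of 17 that fell and 8 that rose without the library labelled colon replicate 3.

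Of 12 metabolic genes known to respond to hypoxia, 4 rose in adenomas and 1 fell, beside 22.2% and 29.9% of all probes. The glucose transporter Slc2a1 was at 0.97, 0.43 and 0.83 in small intestine, at 1.77 and 1.96 in adjacent tissue and at 3.51, 3.28 and 3.35 in adenomas, and rose by 2.64 (adjusted p = 0.000148). Car9, Lonp1 and Pdk1 rose by 1.89, 0.63 and 0.51, and Egln3 fell by 1.54. Slc2a1 and Car9 also rose against adjacent tissue, by 1.51 and 0.93. In CT26 2 rose, Vegfa (2.64) and Lonp1 (2.54), and 3 fell, Car9 (-5.21), Ankrd37 (-4.73) and Egln3, which was not well above background in CT26 and was at least 125.7-fold lower. The counts were 3 and 4 without the library labelled colon replicate 3.

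Mitochondrial ribosomal proteins, which translate the genes of mitochondrial DNA, had no common direction in adenomas. There 7 of 75 rose and 10 fell, shares below the 22.2% and 29.9% of all probes, with a median of -0.06. In CT26 33 rose and 1 fell, with or without the library labelled colon replicate 3, beside 33.3% and 19.1% of all probes, with a median of 0.66, led by Mrps17 at 2.96, 2.82 and 2.88 in colon and at 5.85, 5.47 and 4.56 in CT26 (2.41, adjusted p = 0.00139). Against adjacent tissue 1 rose in adenomas, Mrps6 (0.94), beside 9.65% of all probes called higher. In adjacent tissue and in colon against small intestine no gene of these 7 lists was called at an adjusted p of 0.05. In colon without the library labelled colon replicate 3, where 12.4% of all probes were called lower and 11.4% higher, 4 of 23 assembly factors, 4 of 16 carriers, 5 of 18 citrate cycle genes, 2 of 17 biogenesis regulators, 2 of 12 hypoxia genes, 3 of 75 ribosomal proteins and none of the 12 genes of mitochondrial DNA were lower. Higher were 2 biogenesis regulators, 1 citrate cycle gene, 1 hypoxia gene and 1 ribosomal protein.

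**Figure D4:**
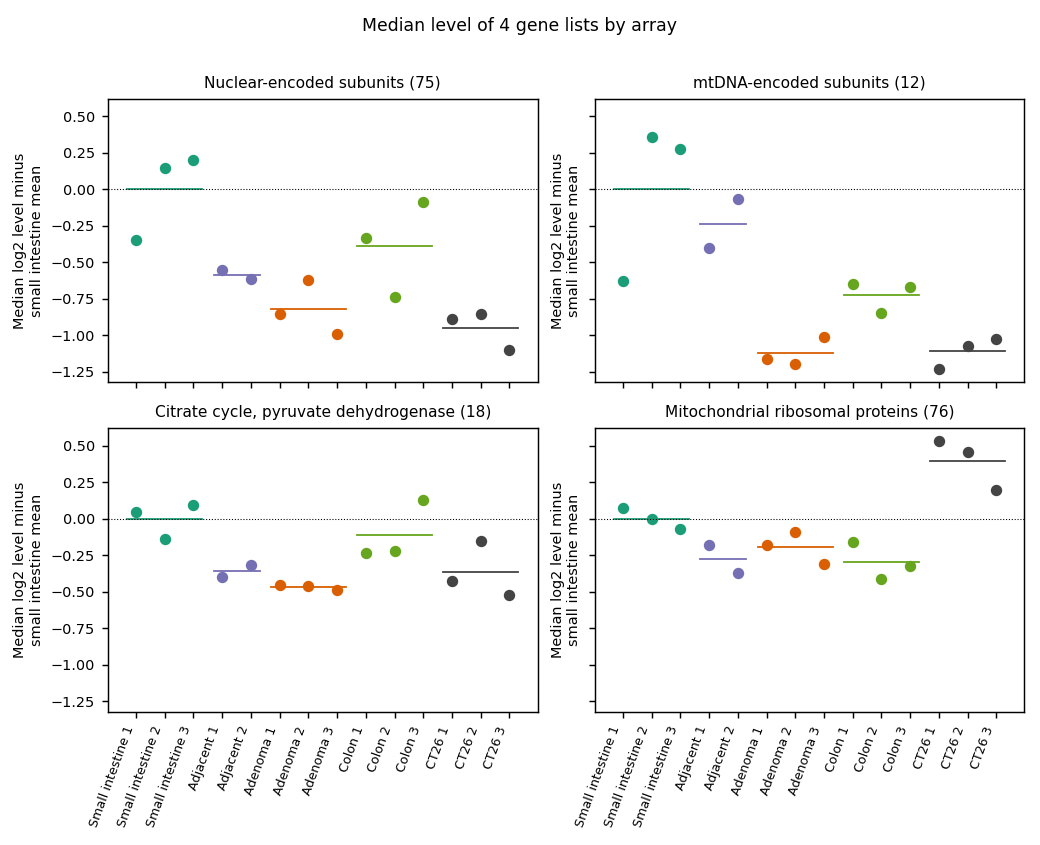
Median log2 difference of 4 gene lists from their mean in small intestine (vertical axis) on each array, by group: 75 nuclear subunits, 12 probes of genes of mitochondrial DNA, 18 citrate cycle and pyruvate dehydrogenase genes and 76 mitochondrial ribosomal proteins. Points are arrays and lines group means. For the nuclear subunits both adjacent arrays lie below all 3 small intestine arrays, for the genes of mitochondrial DNA they lie within the range of small intestine and above the adenomas, and for the ribosomal proteins the CT26 arrays are the highest.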

How the data were processed

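RNA of each sample was labelled and hybridised by the authors to 1 Agilent SurePrint G3 mouse array, and the deposited scanner files (Feature Extraction 10.7.3.1, build mm9) hold the processed signal, an intensity with background subtracted. The deposited table of log2 values, normalized by the authors by a method not given in the sources used here, served as an alternative. Its fold changes and p-values for pairs of groups and 28 further columns per sample were not used.

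Control spots and outliers were removed, and each log2 signal was set relative to its own array, whose 75th percentile was taken as 0. Spots of 1 probe were averaged. Tests covered probes that exceeded background in all arrays of 1 or more groups and were made with limma 3.58.1 in R 4.3.3 on the 2 groups compared, with Benjamini-Hochberg adjustment over all probes tested. A bound for a dim group used the higher of its own signal and the lowest signal among probes well above background. Genes named were the 8 with the largest change per comparison and direction at an adjusted p of 0.05 and well above background on every array, the core subunits, the restricted isoforms with their partners, and up to 5 called genes per pathway list. Others were chosen after their values were seen. The values of 1 core subunit are not reported here, although it is counted among the genes. The genes and lists were chosen with earlier results of these data known. The method was tested on simulated data with noise drawn separately for each probe. A shift shared by many genes of an array was therefore not covered. RefSeq matched all 90 genes, 87 by accession. Arrays have no read depth, and their number limits the precision. Replicate numbers in the labels were not taken to pair samples. Alternatives were background correction, normalization, the filter, the fit, slide and replicate blocks and leaving out each array.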

Additional observations from a re-analysis of the deposited data

Results flagged for a closer look

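For 7 of the 87 genes, the change in CT26 against colon differed from the change in adenomas against small intestine by a test of that difference in 1 limma fit over the 4 groups, a comparison added after the data had been seen. Of all 31893 probes 16% were called higher and 14.2% lower in the same test, and without the library labelled colon replicate 3 the count among the 87 genes was 6 higher and 3 lower, beside 19.8% and 15.7% of all probes. Cox6a2 had a difference of 6.32 (SE 0.789, adjusted p = 8.07e-05), with a change of 5.88 in CT26 and -0.43 in adenomas. Cox4nb had a difference of 1.62 (adjusted p = 0.00107) and Ndufa10 of 1.5 (adjusted p = 0.00192), where Ndufa10 fell by 0.68 in adenomas. Cox8b had -3.54 (adjusted p = 0.00743), Cox7a1 -3.35 (adjusted p = 0.0019), Ndufa4l2 -2.45 (adjusted p = 0.0012) and Atp5sl -1.70 (adjusted p = 0.000823). Without the library labelled colon replicate 3 all 7 kept their sign, and the adjusted p of Cox8b was 0.0108, which misses the 0.01 threshold, and that of the others at most 0.00251. Cox8b was not well above background in CT26, so that its difference is a fitted value and no bound. Cox6a2 was not well above background on every colon array, so that the size of its difference is uncertain too.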

How the results depend on the processing

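Counts use the study's thresholds unless said otherwise. At an adjusted p of 0.05 without a fold limit, members called lower were 73 in adenomas against small intestine, 2 in adenomas against adjacent tissue and 21 in CT26 against colon. Adenomas against small intestine had 0 higher under normexp and in the authors' table, and 1 lower under quantile normalization and in the authors' table, with medians of -0.52 and -0.45. Adenomas against adjacent tissue had 1 lower under normexp and 1 in the authors' table, and the median turned to 0.00177 within slide 2. Adjacent tissue against small intestine had medians of -0.32 under quantile normalization and -0.29 in the authors' table. Colon against small intestine had 1 lower in the fit of all 5 groups. CT26 against colon had 2 higher under quantile normalization, without the filter, with the slide block and with the replicate block, and 3 lower under the last 3 of these. It had 23 lower under quantile normalization and 22 in the authors' table, with medians of -0.90 and -0.82, and a median of -0.18 within slide 1. The cause of these shifts was not tested.

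Leaving out each array gave, for adenomas against small intestine, medians of -0.93 to -0.66, 0 to 1 higher and 1 to 17 lower, with 17 without small intestine replicate 1, 1 without adenoma replicate 1 or 3, and 2 without any of the others. The medians were -0.25 to -0.13 for adenomas against adjacent tissue, -0.73 to -0.48 for adjacent tissue, -0.50 to -0.23 for colon against small intestine, each with 0 called, and -0.61 to -0.30 for CT26 with 2 to 4 higher and 3 to 5 lower. A group left with 1 array was assumed to vary like the other. Same-numbered arrays correlated in their deviations at -0.125 to 0.291. Deviations from the mean of so few arrays offset each other by construction, so that these correlations cannot decide whether samples were paired. Numbers were not taken to pair samples, and blocks by number were fitted as alternatives. Titles and source names of the adjacent arrays give different numbers, and by title the correlations of these arrays were -0.141 to 0.207. A block by title called 0 of 88 genes in adenomas against adjacent tissue and 0 in adjacent tissue against small intestine by limma at an adjusted p of 0.05, with 3 and 49 at an unadjusted p under 0.05, an alternative chosen after seeing the data. With the replicate block, 56 subunits were lower in adenomas and 4 in CT26 at an adjusted p of 0.05, against 68 and 17. Of the refits of single named genes, 146 lost the call, 64 gained it and 2777 were counted as unchanged. Among genes called in the main fit, 0 refits changed direction. For genes not called there, a change of direction was counted as unchanged.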
